A study of Mus musculus with 12 samples.

Results

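The 100 most abundant rows of a single-cell count table of mouse liver, taken among the rows outside the mitochondrial genes, are described here. They were chosen by their total number of unique molecular identifiers (UMIs, which tag single captured transcripts) over all 31003 cells, from a table of 18326 rows. The choice left out rows 13717 to 13729, which are the mitochondrial rows, and rows 5947, 13158, 13159, 13160 and 13162. The summed share of the 13 mitochondrial rows equalled the deposited mitochondrial percent in all 31003 cells, so none of the 100 rows entered that percent. The files do not pair the row numbers with gene names, and a row is therefore given by its number, with no gene, function or genome position.

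Hepatocytes are known for devoting much of their messenger RNA to a small number of very abundant transcripts, among them those of plasma proteins, apolipoproteins and metabolic enzymes. Transcripts that still carry introns lie mostly in the nucleus, whereas most transcripts in the cytoplasm are spliced. Intronic signal in a cell therefore rises with the nuclear part of its RNA. Mitochondrial transcripts are made inside the mitochondria from a separate genome, and their percent is widely used to describe the state of dissociated cells. Which of the 100 rows belong to these kinds of transcripts is not known from the files.

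The livers were those of WT 129S6/SvEv mice of both sexes, collected at zeitgeber time 10 (ZT10) or 22 (ZT22), which count hours from lights on and lie 12 hours apart. The 4 groups were female ZT10, female ZT22, male ZT10 and male ZT22, each with 3 libraries. All animals shared genotype and strain, and every library came from cells freed by collagenase, enriched for hepatocytes by spinning, frozen and thawed before 10x Genomics Chromium v3 library construction. The purity of the enrichment was not checked against hepatocyte markers, since markers need gene names. The labels do not say whether replicates came from separate animals, so p-values measure the spread between these libraries, which may be technical.

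Library totals ranged from 2284202 to 14654630 UMIs. The number of cells ranged from 494 to 3949 and the median depth from 2213 to 3734 UMIs per cell. Male ZT22 replicate 2 had a median intronic fraction of 0.510, and the 11 remaining libraries had between 0.211 and 0.319. Male ZT10 replicate 2, the smallest library, was made of 2 parts, with 406 and 88 cells. In the second part, 76 of the 88 cells fell into a cluster that drew 98.7% of its cells from this library. Clustering placed 26558 cells (85.7%) in a main population and set 4445 cells apart, and the clusters stay unnamed. The cells set apart made up 3.18% of male ZT22 replicate 2 and 26.5% of male ZT10 replicate 2, with the other libraries in between. A total of 120 cell barcodes occurred in 2 libraries each, and none of these pairs of cells had equal counts.

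The 100 rows made up 0.546% of the rows and held 33575121 of the 100273202 UMIs, which is 33.5%. The following 1672 rows by abundance were needed to hold as many UMIs as these 100. The mitochondrial rows held 13.6% of the UMIs, and the 5 other rows left out held 0.347%. Without the exclusions, 12 of the 13 mitochondrial rows and 1 of the 5 others would have stood above the last of the 100. These values follow from the choice of the rows and describe the table.

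Abundance was concentrated at the top of the list. Row 3767 alone held 5166272 UMIs, 5.15% of all UMIs and 166.6 per cell on average. It had 2.35 times the UMIs of the row ranked 2 and 63.8 times those of the row ranked 100. The next rows were row 5124 with 2.20% of all UMIs, row 12190 with 1.83%, row 664 with 1.72% and row 12907 with 1.32%. Together these 5 rows held 12.2% of all UMIs. The first 10 rows held 16.8% of all UMIs and 50.1% of the UMIs of the 100, against 10.97% of all UMIs for ranks 11 to 50 and 5.73% for ranks 51 to 100. Measured as the inverse of the sum of squared shares, the 100 rows were equivalent to 23.3 equally abundant rows.

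**Figure D1:**
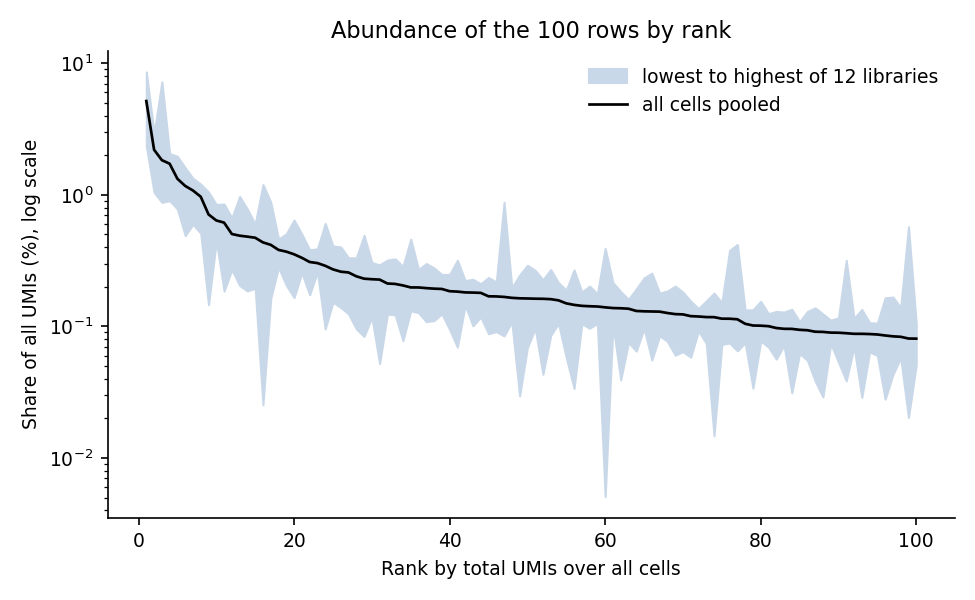
Share of all UMIs (%, log scale) held by each of the 100 rows, ordered by total UMIs. The line is all cells pooled, falling from 5.15% at rank 1 to 0.0808% at rank 100, and the band runs from the lowest to the highest of the 12 libraries, with its lowest point at rank 60 (row 5294).

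The lower end of the list has no gap. Row 8305 at rank 99 had 81136 UMIs and row 7617 at rank 100 had 80976, while row 8209 and row 5121, the first 2 rows outside, had 80605 and 80137. At least 1 UMI was found in 82.3% of cells for row 7617 and in 82.8% for row 8209. Row 8305 was found in 66.1% of cells, the lowest share among the 100. It ranked within the first 100 rows in 4 libraries, and it held 0.572% of the UMIs of male ZT10 replicate 2 but 0.0203% in female ZT22 replicate 3.

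The share of the 100 rows was similar in most libraries. It was 35.4%, 29.4% and 33.9% in female ZT10 replicates 1 to 3, and 36.4%, 34.6% and 34.7% in female ZT22. It was 32.3%, 34.2% and 34.9% in male ZT10, and 35.7%, 26.0% and 34.1% in male ZT22. The lowest value belonged to male ZT22 replicate 2, the library with the high intronic fraction, and the values of the 4 groups overlapped. The group means were 32.9% ± 3.09 in female ZT10, 35.2% ± 1.00 in female ZT22, 33.8% ± 1.38 in male ZT10 and 31.9% ± 5.17 in male ZT22 (SD, n = 3 each). Over the 12 libraries the mean was 33.5% ± 2.95, and it was 34.1% ± 1.89 over the 11 libraries without male ZT22 replicate 2 (SD). Without the second part of male ZT10 replicate 2 the mean of the 12 was 33.3% ± 2.98 (SD). Counting error was small beside this spread, with Wilson 95% intervals of a library's share between 0.0479 and 0.123 percentage points wide. In sums over cells, fewer cells of a type and less RNA per cell cannot be told apart.

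**Figure D2:**
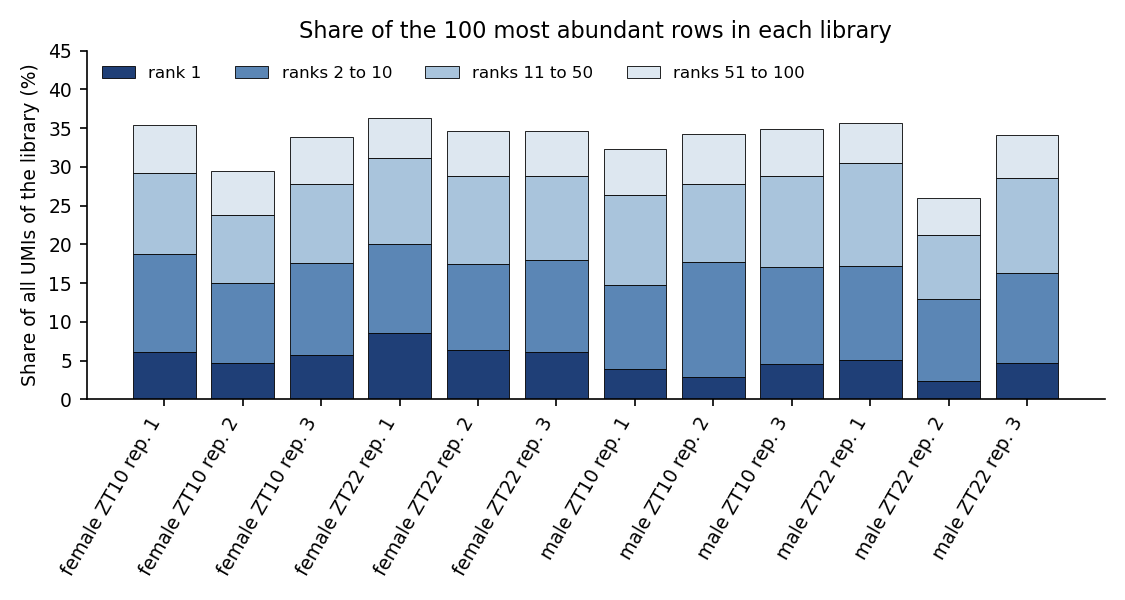
Share of each library's UMIs (%) held by the 100 rows, stacked by rank (rank 1, ranks 2 to 10, 11 to 50 and 51 to 100), 1 bar per library. The bars reach from 26.0% in male ZT22 replicate 2 to 36.4% in female ZT22 replicate 1, and the part of rank 1 varies more between bars than that of ranks 51 to 100.

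How strongly the first rows dominated differed between libraries. The first 10 rows held between 45.8% and 55.1% of the UMIs of the 100, and ranks 51 to 100 held between 4.79% and 6.44% of a library's UMIs. The equivalent number of equally abundant rows was lowest in female ZT22 replicate 1, at 13.7, where row 3767 held 23.5% of the UMIs of the 100. It was highest in male ZT10 replicate 1, at 29.1, where row 3767 held 12.3%. By group it was 20.6 ± 0.794 in female ZT10 and 17.3 ± 3.15 in female ZT22, and it was 23.9 ± 7.04 in male ZT10 and 23.4 ± 3.68 in male ZT22 (SD, n = 3 each). Ranking each library by itself returned between 73 of the 100 rows, in male ZT22 replicate 2, and 90, in female ZT10 replicate 3.

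Single rows varied between libraries more than their sum did. Of the 100 rows, 52 stood within the first 100 of each of the 12 libraries, while 48 missed it in at least 1 library, and the least stable did so in all but 3. The ratio of a row's highest to its lowest library share had a median of 2.67, was below 2 for 19 rows and above 4 for 28. It was lowest for row 4174, at 1.48, and highest for row 5294, at 76.8. Across the 100 rows, which are not independent replicates, the Spearman correlation of the shares in 2 libraries lay between 0.370 and 0.970, with a median of 0.734. The lowest value was that of female ZT10 replicate 3 with male ZT22 replicate 2.

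Row 3767 was first in 10 of the 12 libraries. It held 6.17%, 4.72% and 5.71% of the UMIs of the female ZT10 libraries and 8.56%, 6.34% and 6.09% of the female ZT22 libraries. It held 3.96%, 2.91% and 4.61% in male ZT10 and 5.05%, 2.35% and 4.70% in male ZT22. The female libraries were the higher ones at ZT10, without overlap, and at ZT22 likewise. On TMM-scaled counts its female minus male log2 difference was 0.69 ± 0.29 (SE) with an edgeR adjusted p of 0.22, so it did not pass the test.

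Row 5124, the second in abundance, held 2.78%, 2.15% and 2.36% in female ZT10 and 2.70%, 2.93% and 1.90% in female ZT22. It held 2.02%, 1.48% and 2.18% in male ZT10 and 2.25%, 1.04% and 1.89% in male ZT22, and the sexes overlapped. Row 664 lay between 1.42% and 2.06% in 10 libraries, with 1.2% in male ZT10 replicate 2 and 0.901% in male ZT22 replicate 2. Row 12907 was the one among the first 5 with its highest share in male ZT22 replicate 2, at 1.96%, and its lowest in female ZT22 replicate 2, at 0.779%.

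Row 12190 had its highest shares in 2 male libraries. It held 1.18%, 2.14% and 2.13% in female ZT10, 1.66%, 1.26% and 2.77% in female ZT22, 0.886%, 7.22% and 1.53% in male ZT10, and 1.60%, 4.47% and 0.876% in male ZT22. It was the most abundant of the 100 rows in male ZT10 replicate 2 and in male ZT22 replicate 2, and no group was without overlap with the others. Within male ZT10 replicate 2 it held 31.3% of the UMIs of the second part and 3.39% of those of the first. In the same 88 cells row 3767 held 0.535%, against 3.28% in the first part. All 100 rows together held 49.6% of the UMIs of these cells (Wilson 95% interval 49.4 to 49.8) against 31.8% of the first part. The median intronic fraction was 0.496 in the second part and 0.303 in the first.

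**Figure D3:**
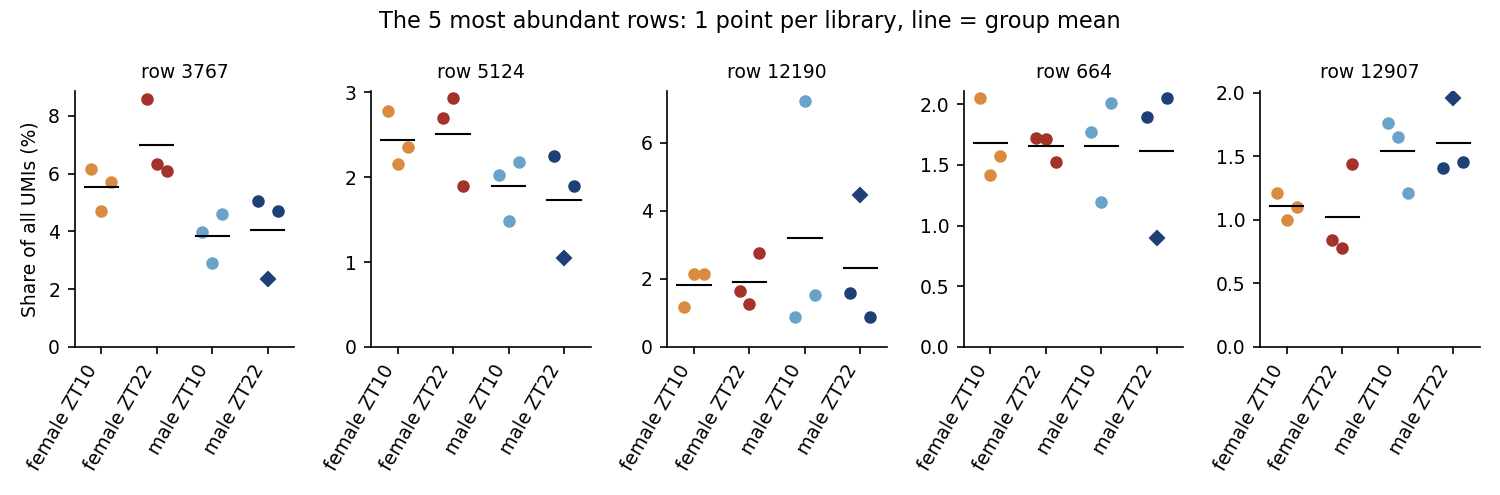
Share of all UMIs (%) of the 5 most abundant rows in the 12 libraries, 1 point per library and a line at the mean of each group, with male ZT22 replicate 2 as a diamond. Row 3767 lies between 2.35% and 8.56%, and row 12190 has 1 point at 7.22% in male ZT10 and 1 at 4.47% in male ZT22.

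Most cells contained most of the rows. At least 1 UMI was found in 66.1% to 99.997% of the cells, with a median over the 100 rows of 92.7%, and 64 rows were found in more than 90% of the cells. Detection was more frequent in the main population for 84 rows and in the cells set apart for 16, with medians of 94.7% and 88.5%. The median depths of these cells were 3019 and 1879 UMIs, so these shares of cells are not at equal depth. The part of depth and of free RNA in them was not tested. By summed UMIs, the 100 rows held 33.7% in the main population and 31.3% in the cells set apart, or 39.3% and 34.1% once mitochondrial rows were left out of the total.

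For the spread between cells, each cell was thinned to 1000 UMIs outside the mitochondrial rows. This kept 30403 cells and left out 600 shallower ones, 297 of them in female ZT10, 86 in female ZT22, 192 in male ZT10 and 25 in male ZT22. The share of the 100 rows in a cell then had medians between 31.2% (male ZT22 replicate 2) and 44.0% (female ZT22 replicate 1). Its SD between cells of a library was 4.02 to 12.2 percentage points, where sampling 1000 UMIs gives 1.48 to 1.57. The largest SD was that of male ZT10 replicate 2. A median of 78 of the 100 rows was detected per thinned cell.

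Row by row, the ratio of variance to mean between thinned cells, which is 1 for pure sampling, had a median of 1.37 over the 100 rows. It was 3.40 in the counts as deposited, where cells also differ in depth. The ratio was above 2 for 10 rows, below 1.2 for 22 and above 1 in all 12 libraries for 98. Row 3767 had the highest value, at 21.3 as the median over libraries, with 6.17 in male ZT22 replicate 2 and 25.5 in male ZT22 replicate 3 at the ends. Row 12907 followed with 8.22, between 4.76 and 18.9. Row 12190 had 6.70 as its median and 183 in male ZT10 replicate 2, the library of 2 parts. The lowest values were those of row 2041, at 1.04, and row 1319, at 1.08, which were detected in medians of 61.2% and 73.4% of thinned cells. The ratio grows with the mean of a row, so it does not rank rows of unequal abundance on 1 scale.

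Some of the 100 rows stood next to each other in the table. There were 15 of them in 5 runs (rows 2049 to 2051, 5122 to 5124, 5294 to 5295, 7001 to 7003 and 9687 to 9690), and they held 7.44% of all UMIs. All 100 rows lay between row 50 and row 13212, and none among the 4597 rows after the mitochondrial block, which held 0.277% of the UMIs. What the order of the rows stands for is not stated in the files.

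Of the 100 rows, 8 differed between the sexes, with the strongest changes at ranks 16 and 60. UMIs were summed over the cells of each library and compared with edgeR's quasi-likelihood test, and a row was called at an adjusted p under 0.05 over all 12505 rows tested. Of the 100 rows, which all passed the filter on low counts, 2 were higher and 6 lower in females, against a background of 5.26% called over all rows tested (2.73% higher and 2.53% lower). Among the 900 rows that follow by abundance, 8.0% were called, the same share as among the 100. None of the first 10 rows was among the 8 called. An unadjusted p under 0.05 was found for 27 of the 100 and for 2304 of the 12505 rows tested. The median log2 difference was 0.09 over the 100 rows and -0.02 over all rows. All 8 called rows differed by at least 2-fold. Rows 2820, 5294, 8305 and 13153, all among the 8, stood within the first 100 in only 6, 6, 4 and 7 libraries. Their place on the list rests on the libraries where they are high, so their differences are partly fixed by the choice of the rows.

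Row 5294, at rank 60, was higher in females. Its normalised counts per 1e6 UMIs (CPM) were 1775, 1529 and 2555 in female ZT10 and 2748, 4187 and 3738 in female ZT22, against 202, 103 and 294 in male ZT10 and 136, 44.4 and 229.6 in male ZT22. The 6 female libraries lay above all 6 male ones. The log2 difference was 3.99 ± 0.39 (SE, edgeR adjusted p = 9.4e-06), a 15.9-fold higher level in females. It belonged to the first 100 rows in 6 libraries and stood as low as rank 2994 in 1 of the others. The choice of the rows therefore bears on its difference and on its lack of overlap. It was detected in 68.6% of all cells.

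Row 2820, at rank 16, showed the reverse. Its CPM were 236, 329 and 353 in female ZT10 and 467, 651 and 379 in female ZT22, against 7829.5, 3839.8 and 8457 in male ZT10 and 13329.7, 4075 and 8548 in male ZT22. Again the 6 libraries of 1 sex lay apart from the 6 of the other. The log2 difference was -4.29 ± 0.34 (SE, edgeR adjusted p = 1.1e-06), a 19.5-fold lower level in females, and the row reached rank 7 in 1 library and rank 531 in another. Row 2820 stood within the first 100 in 6 libraries, so the choice of the rows bears on its difference and lack of overlap too.

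Row 4833, at rank 29, was lower in females by a smaller factor. It had 1390.4, 1109 and 819 CPM in female ZT10 and 1132, 1202 and 1032 in female ZT22. It had 2536, 2262 and 2750.4 CPM in male ZT10 and 5481, 4246 and 3542 in male ZT22. No female library reached a male one. The log2 difference was -1.58 ± 0.20 (SE, edgeR adjusted p = 0.00012), which is 2.99-fold.

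Across the 8 rows called for sex, 6 had libraries of the sexes that did not overlap within either time, 1 of them higher and 5 lower in females. Over all rows tested, 3.89% were called with no such overlap (2.00% higher and 1.89% lower), and among the 900 rows that follow 6.33% were, close to the 6 of 100 here. Rows 2820 and 5294, whose place on the list rests on the libraries where they are high, are among these 6. The number called was 13 without male ZT22 replicate 2 (background 5.31%), 14 with cells of an intronic fraction under 0.3 (background 5.92%) and 16 with DESeq2 (background 7.27%), and all 8 rows stayed among the called ones in each. The cell names begin with a number that some libraries share, and the labels do not say what it marks. With this number as a block, 6 rows were called, 1 higher and 5 lower (background 3.303%). Male ZT10 replicate 2 and a female ZT22 library each have a number that no other library shares, so neither bears on sex in this fit.

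Between the times of day, 5 of the 100 rows differed. At ZT22, 0 rows were higher and 5 lower than at ZT10, against a background of 7.82% called over all rows tested (4.29% higher and 3.53% lower) and 10.8% among the 900 rows that follow, so the share among the 100 was not above the background. All 5 were among ranks 51 to 100. An unadjusted p under 0.05 was found for 12 of the 100 and for 2462 of the 12505 rows tested. Row 2533, 1 of the 5, stood within the first 100 in only 7 libraries, so the choice of the rows bears on its difference. For row 3767 the ZT22 minus ZT10 log2 difference was 0.32 ± 0.29 (SE, edgeR adjusted p = 0.63). The median log2 difference was 0.04 over the 100 rows and 0.0035 over all rows.

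Row 1781, at rank 96, had 1082, 1656 and 1354 CPM in female ZT10 and 327, 549 and 534 in female ZT22. In males it had 876, 1167 and 957 CPM at ZT10 and 372, 363 and 700.2 at ZT22. In each sex the ZT10 libraries lay above those of ZT22. The row stood within the first 100 in 5 libraries, so the choice of the rows bears on its difference too. It fell by 1.3 ± 0.23 on the log2 scale (SE, edgeR adjusted p = 0.0024), 2.46-fold.

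Row 5621, at rank 74, had 1669, 1527 and 1335 CPM in female ZT10 and 789, 1112 and 1038 in female ZT22. In males it had 1667, 1185 and 1679.97 CPM at ZT10 and 461, 129 and 519 at ZT22, the lowest in male ZT22 replicate 2. The times did not overlap within either sex. The row stood within the first 100 in 8 libraries, and its lowest rank in a library was 958. The choice of the rows therefore bears on its difference as well. It fell by 1.33 ± 0.28 on the log2 scale (SE, edgeR adjusted p = 0.0098), 2.51-fold.

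Of the 5 rows called for time, 4 did not overlap between the times within either sex, all lower at ZT22. Over all rows tested, 5.37% were called with no such overlap (3.02% higher and 2.34% lower), and among the 900 rows that follow 8.44% were. Of the 5, only row 11595 (rank 53) stood within the first 100 in all 12 libraries. Its log2 difference was -0.84 ± 0.18 (SE, edgeR adjusted p = 0.0105). For the others the choice of the rows bears on the difference and on any lack of overlap. The number called changed when single libraries were left out. It was 12, with 7 higher and 5 lower, without male ZT22 replicate 2, where the background was 10.6%. It was 3, against backgrounds of 5.45% to 6.75%, without any one of female ZT10 replicate 1, female ZT22 replicate 1, female ZT22 replicate 3, male ZT10 replicate 2 or male ZT22 replicate 1. It was 10, with 5 higher and 5 lower, for cells with an intronic fraction under 0.3 (background 10.06%), and 8 with DESeq2 (background 10.1%). None of the numbers that begin the cell names occurs at both times, so time and whatever these numbers mark cannot be told apart.

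Row 8305, at the edge of the list, was counted among the called rows in both comparisons. Its share of all UMIs was 0.0633%, 0.0352% and 0.0235% in female ZT10 and 0.0219%, 0.0343% and 0.0203% in female ZT22. It was 0.115%, 0.572% and 0.221% in male ZT10 and 0.0485%, 0.0829% and 0.0351% in male ZT22. The 3 male ZT10 libraries were the highest of the 12, followed by male ZT22 replicate 2. It entered the list through these libraries, so its values are given as a description and its calls support nothing.

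No dependence of the time difference on sex was called. The interaction of sex and time gave 0 of the 100 rows by edgeR, against a background of 0.00% (0 of 12505 rows), with 3 of the 100 and 739 of all rows at an unadjusted p under 0.05. DESeq2 gave 0 of the 100 rows and 7 of all rows. The lowest edgeR adjusted p among the 100 was 0.84.

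**Figure D4:**
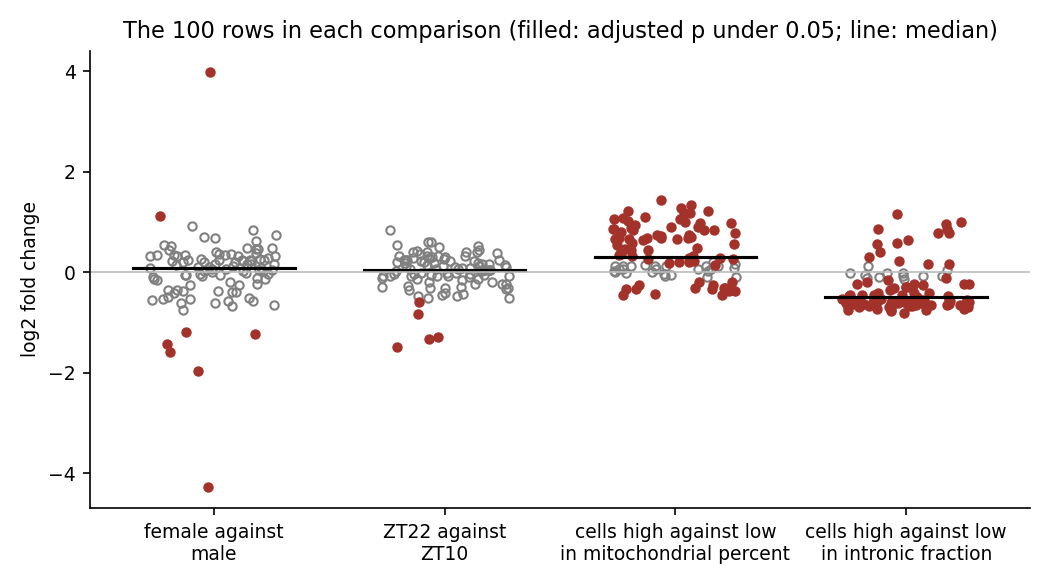
The log2 fold change of each of the 100 rows in 4 comparisons (points, filled where the edgeR adjusted p was under 0.05, with a line at the median). For sex the points reach from -4.29 to 3.99 with 8 filled, for time 5 are filled and all lie below 0, and in the 2 splits of cells most points are filled, with medians of 0.30 and -0.49.

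More of the 100 rows were higher than lower in the cells of a library that had a high mitochondrial percent. The cells of each library were split at its median mitochondrial percent, the mitochondrial rows were left out of the counts, and the 24 sums were compared with the library as a block. Of the 100 rows, 59 were higher and 15 lower in the cells with more mitochondrial UMIs, on the TMM scale. Scaling to total UMIs in place of TMM, chosen after seeing the data, gave 44 higher and 31 lower rows, with 9 rows called in the opposite direction, where 65.4% of all rows were called (814 higher and 5960 lower). It placed the median of all rows at -0.24 and that of the 100 at 0.06, so directions near 0 are relative to the scaling. The background was 41.3% called over the 10361 rows tested (19.0% higher and 22.2% lower), and among the 900 rows that follow the figure was 66.8%, with 375 higher and 226 lower. In 49 of the called rows all 12 libraries moved the same way, 46 upward and 3 downward. The same held for 10.9% of all rows tested (6.69% upward and 4.24% downward) and for 25.0% of the 900 rows that follow. The median log2 difference was 0.30 over the 100 rows, 0.07 over the 900 rows that follow and -0.01 over all rows. Higher and lower calls numbered 6 and 2 among ranks 1 to 10, 29 and 4 among ranks 11 to 50, and 24 and 9 among ranks 51 to 100.

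Row 3767 was among the rows that were higher. In the cells with less mitochondrial signal it had between 19056 and 80096 CPM over the 12 libraries, with a median of 36654, and in the cells with more it had between 27573 and 152916, with a median of 89058. It was higher in 12 of 12 libraries, by 1.18 ± 0.13 on the log2 scale (SE, edgeR adjusted p = 1.0e-07). Row 5124 was also higher in 12 of 12 libraries, by 0.69 ± 0.10 (SE, edgeR adjusted p = 3.2e-06). Row 12907 was lower in 11 of 12, with a log2 difference of -0.46 ± 0.10 (SE, edgeR adjusted p = 0.0011). For row 12190 the difference was 0.19 ± 0.12 with an edgeR adjusted p of 0.20, higher in 8 libraries and lower in 4.

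The largest changes with the same sign in every library were those of row 7003 and row 447. Row 7003 (rank 56) had 246 to 1475 CPM in the cells low in mitochondrial percent, with a median of 1074, and 431 to 5427 in the cells high in it, with a median of 2352. Its log2 difference was 1.44 ± 0.12 (SE, edgeR adjusted p = 2.9e-09). Row 447 (rank 78) had 349 to 1142 CPM and a median of 758 in the low cells, and 1264 to 2529 and a median of 1708 in the high cells. The ranges of row 447 did not overlap, and its log2 difference was 1.34 ± 0.11 (SE, edgeR adjusted p = 3.0e-09).

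The downward changes were small by comparison. Row 9793 (rank 82) had medians of 1247 CPM in the low and 923 in the high cells, with a log2 difference of -0.45 ± 0.06 (SE, edgeR adjusted p = 2.1e-06). Row 12814 (rank 70) had medians of 1585 and 1148 CPM, with a log2 difference of -0.44 ± 0.06 (SE, edgeR adjusted p = 3.2e-06). Both were lower in 12 of 12 libraries, each 1.36-fold.

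Other properties of the cells moved with this split. The cells set apart made up a median of 27.5% of the low cells (2.69% to 45.3% over libraries) and 3.75% of the high cells (1.18% to 20.2%). The median UMIs per cell had library medians of 2614.5 in the low and 3480 in the high cells, and the median intronic fraction had library medians of 0.256 and 0.221. In the main population alone, 55 rows were higher and 16 lower, and with the split made within 10 classes of depth, 59 and 14. With the split made within 10 classes of the intronic fraction, 59 rows were higher and 18 lower. The backgrounds of these 3 fits were 30.8%, 32.5% and 43.7%. In the split within intronic classes, the share of the 100 rows among UMIs outside the mitochondrial rows was higher in the high cells in 12 of 12 libraries. In male ZT22 replicate 2 it was 31.3% in the low and 31.4% in the high cells, against 29.8% and 33.1% in the split without these classes.

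With the intronic fraction, more of the 100 rows were lower than higher. With cells split at the library's median intronic fraction, 15 of the 100 rows were higher and 73 lower in the cells with more intronic signal, against a background of 72.7% called over the 10352 rows tested (36.4% higher and 36.2% lower). The 100 rows hold 33.5% of all UMIs and may enter the intronic fraction, whose denominator is not stated. The split is then not independent of their counts and may partly fix their directions. How far it does so was not tested. Scaling to total UMIs in place of TMM gave 20 higher and 64 lower rows and placed the median of all rows at 0.16 and that of the 100 at -0.33. Directions near 0 are thus relative to the scaling here too. The share of all rows called with that scaling is not given, so its counts are not set against a background. Among the 900 rows that follow, 304 rows were higher and 505 lower, or 89.9% called. In 76 of the called rows all 12 libraries moved the same way, 10 upward and 66 downward. The same held for 37.2% of all rows tested (19.9% upward and 17.3% downward) and for 76.6% of the 900 rows that follow, a share near that of the 100. The median log2 difference was -0.49 over the 100 rows, -0.27 over the 900 rows that follow and -0.01 over all rows. Of the first 10 rows, 1 was higher and 9 were lower.

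The 1 higher row among the first 10 was row 12907. It had between 5433 and 16919 CPM in the cells with less intronic signal, with a median of 8136.0, and between 13193 and 26000.1 in the cells with more, with a median of 20520.5. The log2 difference was 1.17 ± 0.09 (SE, edgeR adjusted p = 1.9e-11), above 0 in 12 of 12 libraries, and smallest, at 0.32, in male ZT22 replicate 2. Row 9408 (rank 65) had 736 to 1718 CPM in the low and 1616 to 2713 in the high cells, with medians of 887.97 and 1824. Its log2 difference was 1.00 ± 0.06 (SE, edgeR adjusted p = 9.0e-13). It was detected in 91.9% of the cells of the main population and in 38.4% of those set apart.

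Among the rows that were lower, rows 7003 and 7002, which adjoin in the table, had the largest changes. Row 7003 had a median of 1908 CPM in the low cells (491 to 4156) and 1217 in the high cells (228 to 2814), with a log2 difference of -0.82 ± 0.07 (SE, edgeR adjusted p = 1.8e-10). Row 7002 (rank 11) had medians of 9921 (2849.5 to 13422) and 5914 CPM (1144 to 8659), with a log2 difference of -0.77 ± 0.07 (SE, edgeR adjusted p = 3.5e-10). Within each of the 12 libraries both were lower in the cells with more intronic signal, although the ranges over libraries overlapped.

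The other 4 of the first 5 rows were lower with more intronic signal. The log2 difference was -0.73 ± 0.08 for row 3767, -0.60 ± 0.07 for row 5124 and -0.61 ± 0.07 for row 664, all below 0 in 12 of 12 libraries (SE, edgeR adjusted p of 5.7e-09, 5.0e-08 and 1.9e-08). For row 12190 it was -0.23 ± 0.08 (SE, edgeR adjusted p = 0.013), below 0 in 11 of 12, the exception being male ZT10 replicate 2 at 0.62.

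Cell composition moved with this split as well. The cells set apart made up a median of 21.4% of the low and 8.56% of the high cells, and the median mitochondrial percent was 13.3 in the low and 10.1 in the high cells. With the split made within 10 classes of the mitochondrial percent, 15 rows were higher and 72 lower, and in the main population 12 and 78. The shares of all rows called in these fits are not given, so the counts are not set against a background.

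Both splits use the same cells, so their calls are given side by side without a test. Of the 100 rows, 46 were higher with mitochondrial percent and lower with intronic fraction, 12 were lower in both, 6 higher in both, and 1 lower with the first and higher with the second. A further 3 were called in neither. Taken singly, the splits called 41.3% and 72.7% of all rows tested. The crossing was not counted over all rows or over the 900 rows that follow. These counts are therefore not set against a background and show no trait of the 100 rows.

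Finer classes of cells showed the same order for the summed share. The cells of each library were ranked into 10 classes of equal size, and the share of the 100 rows was taken among UMIs outside the mitochondrial rows. From the lowest to the highest class of mitochondrial percent, its median over the libraries went from 32.5% (27.0 to 34.5) to 45.5% (33.8 to 62.8), and it was higher in the last class in 12 of 12 libraries. The highest value, 62.8%, was that of male ZT10 replicate 2. With the mitochondrial rows kept in the total, the share was higher in the last class in 6 libraries and lower in 6. From the lowest to the highest class of intronic fraction, the median went from 41.8% (38.4 to 47.6) to 31.2% (24.3 to 35), lower in 12 of 12 libraries. As in the split, the 100 rows may themselves enter the intronic fraction that orders these classes.

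Of the first 5 rows, row 3767 had the largest ratio between the end classes of mitochondrial percent and row 12907 that of intronic fraction. The share of row 3767 in the last class of mitochondrial percent was a median of 3.14 times that in the first (1.51 to 5.08 over the libraries). The share of row 12907 in the last class of intronic fraction was a median of 8.29 times that in the first (2.35 to 13.6). Across the cells of a library, which share the library and its depth range, the Spearman correlation of the share of the 100 rows was 0.349 to 0.772 with mitochondrial percent and -0.914 to 0.027 with intronic fraction, with medians of 0.627 and -0.529 over the 12 libraries, with 494 to 3949 cells each. The values for the intronic fraction carry the same limit, that the 100 rows may enter it.

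**Figure D5:**
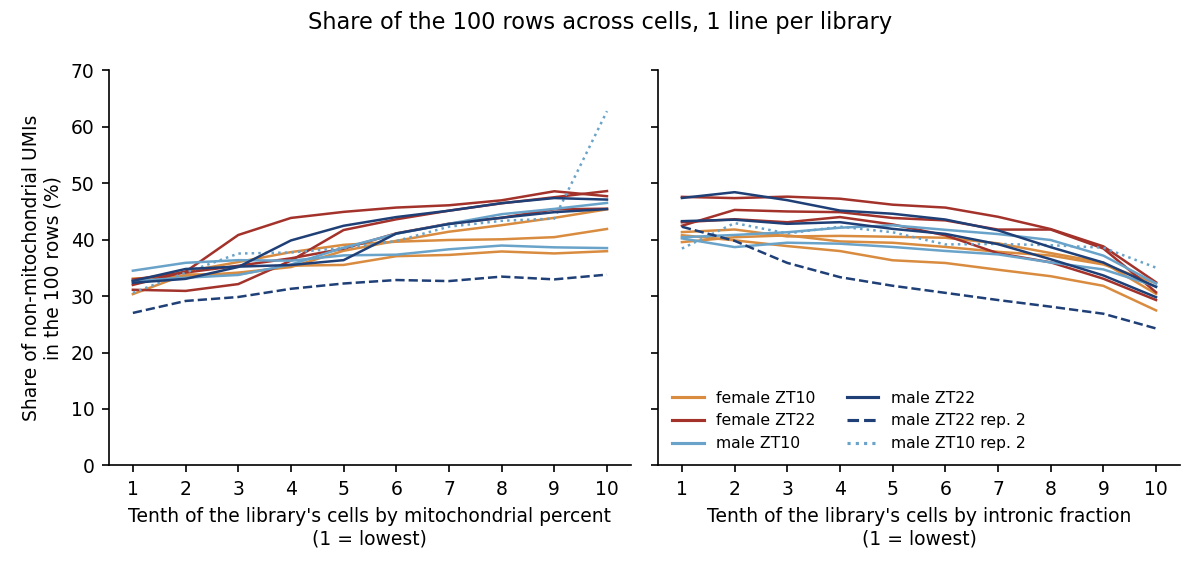
Share of UMIs outside the mitochondrial rows (%) held by the 100 rows, in 10 equal classes of the cells of each library, ordered by mitochondrial percent (left) and by intronic fraction (right), 1 line per library, coloured by group. All lines end higher than they start on the left and lower on the right, with male ZT10 replicate 2 (dotted) reaching 62.8% in the last class on the left and male ZT22 replicate 2 (dashed) lying lowest in most classes.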

How the data were processed

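Raw UMI counts of 18326 rows in 31003 cells were deposited by the authors as 1 table. Per the file headers, the accompanying metadata give for each cell the percent of UMIs in mitochondrial genes and an intronic signal, which is a fraction between 0 and 1 whose denominator is not stated. The submitters' processing notes name Cell Ranger 6.1.2, Seurat and the mm10 build, without their roles. Column sums, rows above 0 and the mitochondrial percent were recomputed and equalled the deposited values in all 31003 cells. Cells were mapped to libraries by the sample names in the metadata, and 0 columns belonged to another sample.

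The rows and every list were chosen with earlier results of these data known. UMIs of all deposited cells were summed per library and tested with edgeR 4.0.16 (TMM, filterByExpr, 1 mean per group, Benjamini-Hochberg adjustment over all rows tested, threshold 0.05, no minimum fold). For the splits of cells at a library's median, the 13 mitochondrial rows were left out and the library was a block. The statistics scripts were tested on simulated data. Clusters came from scanpy 1.11.5 and igraph 0.11.9 (2000 variable rows, 8 principal components, 15 neighbours, resolution 0.3) and were set apart where the 10 leading rows had a median fold above 8. The clustering settings were chosen after seeing the data, and no doublets were removed. Rows given by number are the first 5, those at the edge of the list, up to 2 called rows per direction and comparison (no overlap within each stratum, or 1 sign in all 12 libraries, then the largest change), and the 2 highest and 2 lowest in variance to mean. Rows 2533, 4174, 5121, 8305, 11595, 13153 and the adjacent runs were chosen after their values were seen. Intervals cover counting error only.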

Additional observations from a re-analysis of the deposited data

How the results depend on the processing

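The 12 rows that the rule gave for a comparison kept their direction and their side of the threshold in all 276 refits. They were picked in the same libraries for a low adjusted p, libraries that did not overlap or shared 1 sign, and a large change. This stability therefore largely follows from the choice and is no separate support. Counts of the 100 rows moved more. The share of all rows called also differed between refits, as given above for sex and time, so these counts do not describe the 100 rows alone. For sex, DESeq2 1.42.0 called 16 rows (4 higher and 12 lower), cells with an intronic fraction under 0.3 gave 14 (4 and 10), and scaling to total UMIs without TMM, added after seeing the data, gave 10 (4 and 6). Leaving out 1 library gave 7 to 13 for sex, 3 to 12 for time, 0 for the interaction, 71 to 81 for the mitochondrial split and 86 to 90 for the intronic split. With all libraries, these 2 splits called 41.3% and 72.7% of all rows tested. Apart from the refits with a background above, the shares of all rows called are not given. Those counts are therefore not set against a background. For time, DESeq2 called 8 (1 and 7) and cells with an intronic fraction under 0.3 gave 10 (5 and 5). Without male ZT22 replicate 2, sex gave 13 and time 12. The cause was not tested.

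The share of the 100 rows was 38.9% ± 3.22 (SD over 12 libraries) with mitochondrial rows out of the total, and 33.2% to 34.1% when 1 library was left out. Ranking rows by their mean share over libraries returned all 100 rows. The ratio of variance to mean was 3.40 without thinning. The labels give the groups the same replicate numbers without saying what a number marks. Deviations of same-numbered libraries correlated between -0.244 and 0.513 over 18 pairs, above 0.1 in 8. The 3 pairs of a female and a male library at ZT10 lay at 0.213, 0.226 and 0.353, and the 3 at ZT22 at 0.061, -0.168 and -0.067. Not every pair exceeded 0.1, so the numbers were not taken to pair the libraries. With the replicate block, 9 rows were called for sex (2 and 7), 5 for time and 0 for the interaction, and 7 for sex (1 and 6) where the block was nested in time, an alternative chosen after seeing the data. The shares of all rows called with these replicate blocks are not given, so their counts are not set against a background. The number that begins the cell names could not be fitted as a block for time. The total of male ZT10 replicate 2, 2284202 UMIs from 494 cells, was the lowest.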
